A study of Mus musculus with 2 samples.

Results

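The genes for voltage-gated calcium channels, voltage-gated sodium channels and hyperpolarization-activated HCN channels were followed in RNA from mouse ventral midbrain, the region that holds the DA neurons of the SN and the VTA among other neurons and glia. Members were the rows of the deposited gene table with a symbol that begins with Cacna, Cacnb or Cacng, that reads Scn, a number and a or b, or that reads Hcn and 1 to 4. This gave 43 of 31252 gene rows: 26 calcium, 13 sodium and 4 HCN channel genes. Scn2a1, the symbol under which these files list the sodium channel gene Scn2a, falls outside the pattern and is given only beside the members.

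The data hold 2 libraries, 1 from a Ctrl sample and 1 from an OE sample, both from mice of 2 months with the strain label incipient congenic C57BL/6. Ctrl mice carried Slc6a3-Cre, in which Cre recombinase is made from the dopamine transporter gene, and OE mice carried Slc6a3-Cre with CAG-S-COUP-TFII, an allele that makes COUP-TFII where Cre is active. By the cross in the study's methods, mice of both genotypes also carried a ROSA26 tdTomato reporter allele and 1 floxed Tfam allele. The labels mention neither. The number of animals behind each library is not given in the sources used here. The labels name DA neurons as the cell type, but the RNA came from whole dissected tissue, and Cre-driven COUP-TFII is restricted to the cells that use the Slc6a3 promoter.

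Voltage-gated calcium channels are built around a pore-forming alpha1 subunit that opens on depolarization, with alpha2delta and beta subunits that set how much channel reaches the membrane. Sodium channel alpha subunits carry the upstroke of the action potential, and their beta subunits tune gating and anchor the channel. HCN channels open on hyperpolarization and pass the mixed cation current that shapes pacemaking. In DA neurons of the midbrain, L-type calcium channels, sodium channels and HCN channels are known to act together in autonomous firing, and T-type calcium channels are best known for burst firing of thalamic relay neurons.

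Nr2f2, the gene for COUP-TFII, goes against the labels. It had 637 counts in the Ctrl-labelled library and 377 in the OE-labelled library, a log2 fold change (log2 FC, the OE-labelled over the Ctrl-labelled library after scaling for depth, as everywhere below) of -1.07 with a 95% counting interval from -1.26 to -0.88. Whether reads of the transgene were counted in that row is not stated in the sources used here. The study reported higher COUP-TFII RNA in isolated DA neurons of OE mice, whereas this row counts RNA from all cells of the tissue. The labels were kept as given, and every direction below is a direction between 2 labelled libraries whose genotype the overexpressed gene does not bear out. With 1 library per group there is no replicate spread, so no test was made and no p-value is given. The counting intervals cover counting error of these 2 libraries only.

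The libraries summed to 16984336 (Ctrl) and 21326632 (OE) counts, of which the members held 0.313% and 0.311%. The tissues also differed in other cell markers, in lists chosen with earlier results of these data known. Over all 15246 tested genes, 17.9% were higher and 16.6% lower by more than log2 0.2. All 16 markers of DA neurons were higher in the OE-labelled library, their median log2 FC was 1.26, and their summed level was 1563 (Ctrl) and 3709 (OE) CPM, the counts per 1e6 of the scaled library size. Of 15 thalamus markers, 13 were lower by more than log2 0.2 and 1 was higher, with a median of -1.60 and a summed level of 1406 and 903 CPM, and Gbx2 was at 0 in the OE-labelled library with 29.9 counts in the other. Pan-neuronal markers had a median of 0.21 over 12 genes, with 6 higher and 1 lower by more than log2 0.2, and oligodendrocyte markers a median of -0.29 over 10, with 7 lower. Astrocyte markers had a median of -0.096 over 7 genes, with 1 lower, and microglia markers a median of -0.12 over 7, with 3 lower. The part of these marker differences in the channel results was not tested. In bulk tissue, fewer cells of a type and less RNA per cell cannot be told apart.

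**Figure D1:**
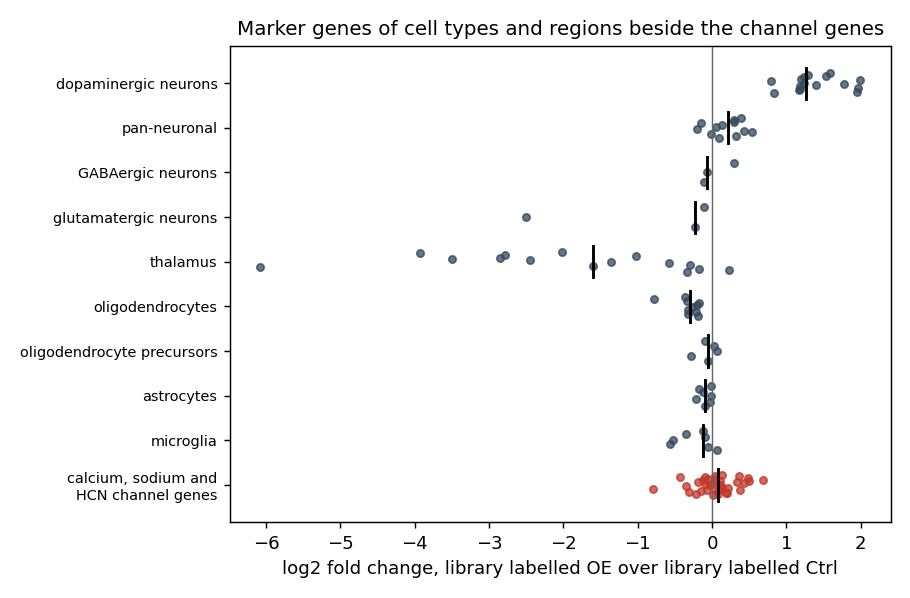
Log2 fold change (x axis) of each tested marker gene (points) by cell type or region (rows), with the channel genes in red and black bars at the medians. DA neuron markers lie to the right, with a median of 1.26, thalamus markers spread to the left, with a median of -1.60, and the 36 tested channel genes lie between -0.80 and 0.68.

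Of the 43 members, 36 had a mean of at least 10 counts, and each of these had 92 or more counts in both libraries. The remaining 7 were near or at the floor of detection and are given at the end of their families. In the OE-labelled library 9 of the 36 genes (25.0%) lay above a log2 FC of 0.2 and 5 (13.9%) lay below -0.2. Over all 15246 tested genes the same shares were 17.9% and 16.6%. All 14 of these channel genes also had a counting interval on that side of 0, while over all genes only 9.91% were higher and 9.16% lower by that stricter rule. The channel genes are deeply counted, with a median of 1015 counts against 415 for all tested genes, which makes their intervals narrower. Among the 11735 genes whose mean reached 100 counts, which include all 36 tested members, 12.98% lay above and 11.7% below these limits.

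Over the 36 genes the median was 0.073, beside 0.0047 for all tested genes, and their summed level was 3114 and 3128 CPM. The channel genes thus had nearly equal summed levels in both libraries, and the differences lay between members. The split of 9 higher and 5 lower depends on the scaling: scaled to total counts it was 7 and 6, and scaled so that the pan-neuronal markers had a median of 0 it was 4 and 15. The latter scaling moved the median of all genes from 0.0047 to -0.21, so each fold change below would be lower by 0.21 on it, and 16 of the 36 change sign. The genes nearest the threshold were Cacna1e at 0.21, Cacnb1 at 0.21 and Cacna1c at -0.22 past it, and Scn1a at -0.19 and Cacna1d at 0.19 within it.

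**Figure D2:**
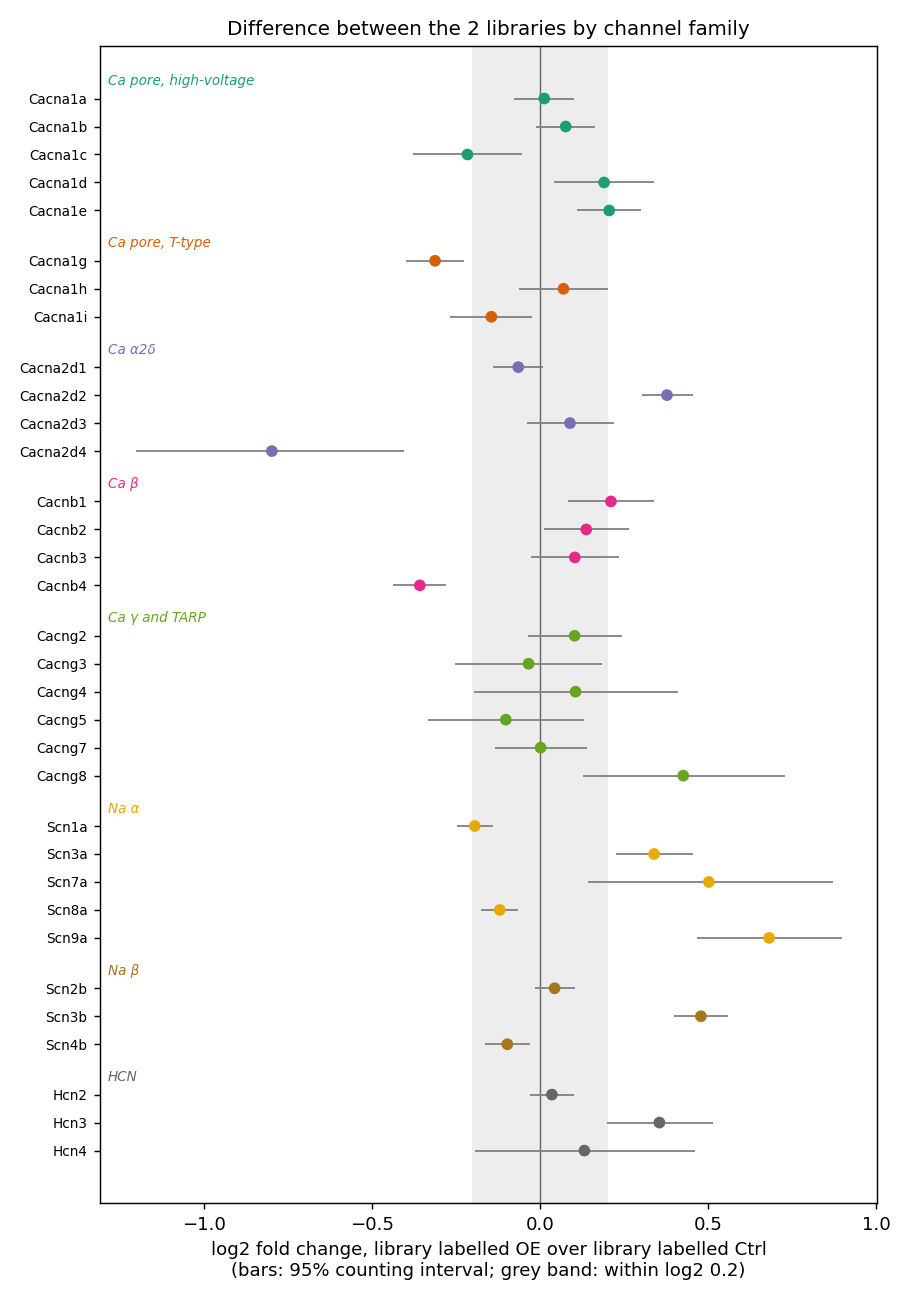
Log2 fold change (x axis) of 33 tested channel genes by family (rows), with 95% counting intervals as bars and the range within log2 0.2 in grey. With the pan-neuronal scaling Cacna1e and Cacnb1 would lie below 0. Scn9a lies farthest to the right at 0.68 and Cacna2d4 farthest to the left at -0.80, and most families hold genes on both sides of 0.

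Among pore-forming subunits of high-voltage-activated calcium channels, those that need strong depolarization, most genes were close between the libraries. Cacna1a, the P/Q-type subunit of presynaptic terminals, had 1833 counts (Ctrl) and 2298 counts (OE), a log2 FC of 0.013 with an interval from -0.076 to 0.10. Cacna1b, the N-type subunit that shares this presynaptic role, had 1891 and 2478 counts, and its fold change of 0.077 was not separated from 0 by its interval, which ran from -0.010 to 0.16. For the pair of major presynaptic channel genes, no difference was therefore detectable with the main scaling. With the pan-neuronal scaling Cacna1a was at -0.20 and Cacna1b at -0.14, below these intervals.

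The 2 L-type genes of brain differed. Cacna1c had 600 counts in the Ctrl-labelled and 642 in the OE-labelled library, which at the larger depth of the latter is a log2 FC of -0.22 (interval -0.38 to -0.053). Cacna1d, the L-type subunit that opens at more negative voltages and takes part in DA neuron pacemaking, had 638 and 905 counts, a log2 FC of 0.19 (interval 0.043 to 0.34), but -0.023 with the pan-neuronal scaling. Their intervals do not overlap. Cacna1e, the R-type subunit, had 1500 and 2150 counts and a log2 FC of 0.21 (interval 0.11 to 0.30), but -0.0080 with the pan-neuronal scaling. The L-type genes of retina and muscle, Cacna1f with 3 and 7 counts and Cacna1s with 7 in each library, were under the count minimum.

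Of the T-type subunits, which open near rest, Cacna1g was the most counted. It had 2237 counts in the Ctrl-labelled library and 2239 in the OE-labelled library, or 131 and 106 CPM after scaling, a log2 FC of -0.31 (interval -0.40 to -0.23). Cacna1i, the slowest T-type channel and typical of the reticular thalamic nucleus, went the same way by a smaller amount, with 1039 and 1168 counts and a log2 FC of -0.14 (interval -0.27 to -0.022). Cacna1h did not share this direction: 815 and 1063 counts gave 0.070 (interval -0.063 to 0.20). The T-type genes together had a summed log2 FC of -0.19 (interval -0.25 to -0.12), and the high-voltage genes 0.078 (interval 0.031 to 0.12). Cacna1g held 54.7% (95% Clopper-Pearson interval 53.1% to 56.2%) of the T-type counts in the Ctrl-labelled library and 50.1% (48.6% to 51.6%) in the OE-labelled one. These shares are of counts, not corrected for transcript length, and serve only to compare the libraries.

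The alpha2delta subunits, extracellular proteins that carry channels to the membrane and bind gabapentin in the case of the first and second members, held the widest spread of the calcium channel families. Cacna2d2 had 2282 counts (Ctrl) and 3685 counts (OE), a log2 FC of 0.38 (interval 0.30 to 0.45). Cacna2d4, known from retina, had 129 and 92 counts and the lowest value of any tested member, -0.80 (interval -1.20 to -0.40). The other two lay near 0: Cacna2d1 at -0.064 with 2672 and 3175 counts, and Cacna2d3 at 0.090 with 860 and 1137. Neither interval excluded 0. Cacna2d1 held 45.0% and Cacna2d2 38.4% of the family's counts in the Ctrl-labelled library, against 39.3% and 45.6% in the OE-labelled library. These shares are not corrected for transcript length and do not rank the genes within a library. For both Cacna2d1 and Cacna2d2 the counting intervals of the share did not overlap between the libraries, with 37.2% to 39.6% and 44.5% to 46.6% for Cacna2d2.

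Beta subunits bind the cytoplasmic linker of high-voltage pore subunits. Cacnb4 stood apart from its 3 paralogs. It had 2632 counts in the Ctrl-labelled library and 2553 in the deeper OE-labelled library, a log2 FC of -0.36 (interval -0.44 to -0.28). The other genes were on the higher side: Cacnb1 at 0.21 (846 and 1217 counts, interval 0.084 to 0.34, and -0.0028 with the pan-neuronal scaling), Cacnb2 at 0.14 (896 and 1225 counts, interval 0.013 to 0.26) and Cacnb3 at 0.10 (847 and 1131 counts, interval -0.026 to 0.23). With the pan-neuronal scaling Cacnb2 and Cacnb3 were also below 0, at -0.076 and -0.11. The interval of Cacnb4 overlapped none of theirs. Its share of the family's counts was 50.4% (49.0% to 51.8%) in the Ctrl-labelled and 41.7% (40.4% to 42.9%) in the OE-labelled library.

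The gamma family is named for a calcium channel subunit of skeletal muscle, but most of its brain members are TARPs, which escort AMPA-type glutamate receptors to synapses. Of 6 tested genes only Cacng8, a TARP, was past log2 0.2, with 149 and 249 counts and a log2 FC of 0.43 (interval 0.13 to 0.73). Cacng2, the TARP known as stargazin, had 735 and 981 counts and 0.10. Cacng7 was nearly equal at 0.0022 with 786 and 978 counts. Cacng3 had 318 and 386 counts, Cacng4 160 and 214, and Cacng5 291 and 337, with log2 FCs of -0.034, 0.11 and -0.10. For these 5 genes the intervals included 0. The muscle genes Cacng1, with 0 and 2 counts, and Cacng6, with 1 and 0 counts, were at the floor, where a count of 0 allows up to 3 counts by counting error, or 0.176 (Ctrl) and 0.141 (OE) CPM.

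**Figure D3:**
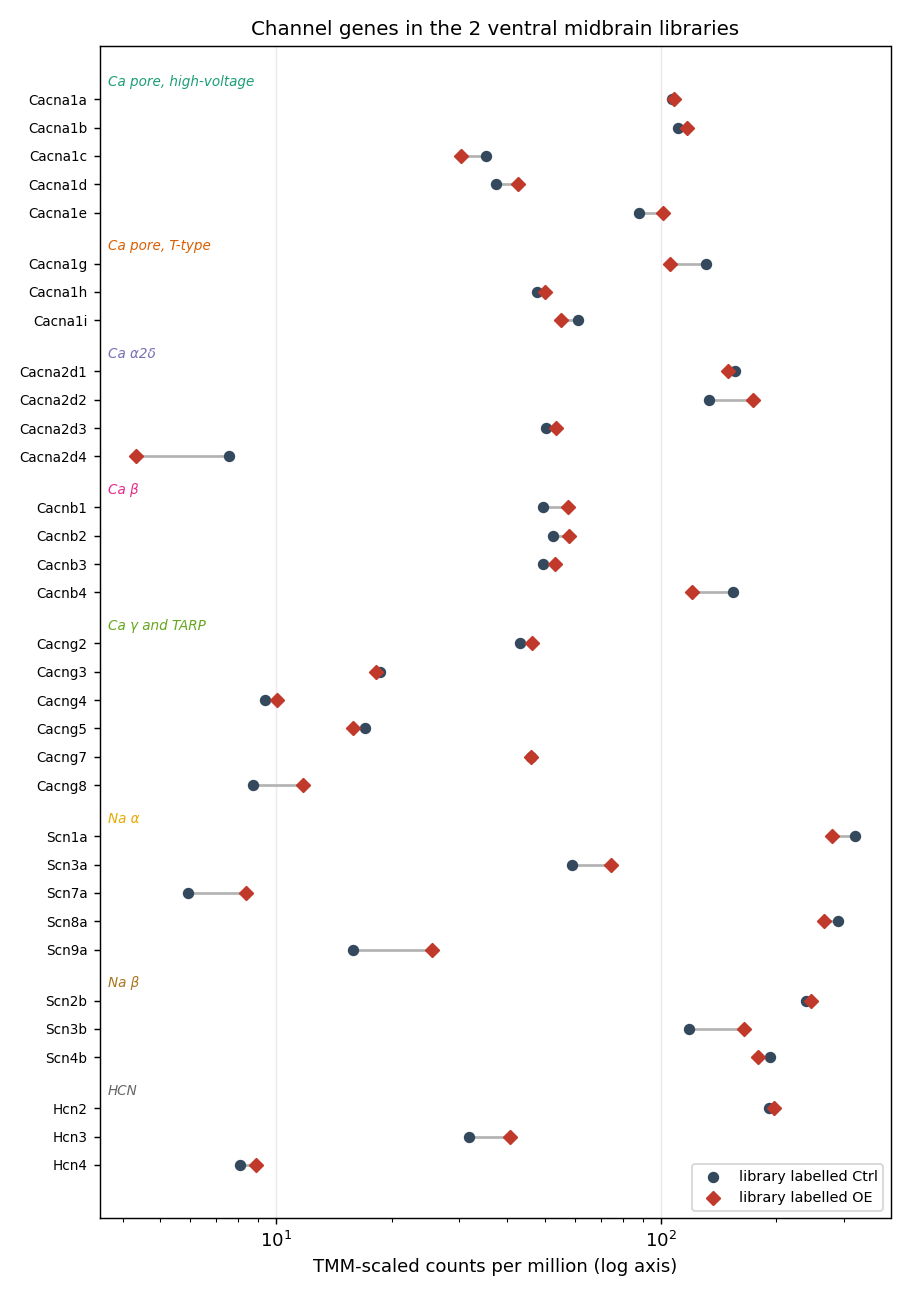
Level of 33 tested channel genes in CPM after TMM scaling (x axis, log scale) in the Ctrl-labelled (dark circles) and OE-labelled (red diamonds) library, by family. Levels run from 4.34 for Cacna2d4 in the OE-labelled library to 319 for Scn1a in the Ctrl-labelled library, and for most genes the gap between libraries is small beside the range among genes.

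In the OE-labelled library the abundant sodium channel alpha members Scn1a and Scn8a were slightly lower. The rarer Scn9a, Scn3a and Scn7a were higher. With the pan-neuronal scaling Scn1a and Scn8a were at -0.41 and -0.33, and Scn9a, Scn3a and Scn7a at 0.47, 0.13 and 0.29. Scn1a, which is prominent in fast-spiking GABAergic neurons, had 5453 and 5923 expected counts, a log2 FC of -0.19 (interval -0.25 to -0.14). Scn8a, the main channel of the axon initial segment in adult neurons, had 4935 and 5645 counts and -0.12 (interval -0.17 to -0.064). Both lie within log2 0.2 and both intervals lie below 0. Scn2a1 had 3255 and 3990 expected counts and a log2 FC of -0.019 (interval -0.087 to 0.048), so the third abundant alpha gene, outside the symbol pattern, showed no detectable difference.

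Scn9a, best known from sensory and sympathetic neurons and from hypothalamus, had 271 expected counts in the Ctrl-labelled and 540 in the OE-labelled library. Its log2 FC of 0.68 (interval 0.47 to 0.90) was the highest of the tested members and lay above that of 96.7% of all tested genes. Scn3a, a channel gene most active before birth, had 1002 and 1576 expected counts and 0.34 (interval 0.23 to 0.46). Scn7a encodes a sodium-sensing relative that is not opened by voltage. It had 101 and 178 counts and 0.50 (interval 0.14 to 0.87). The muscle gene Scn4a had 4 counts in each library, and the genes of sensory ganglia, Scn10a and Scn11a, had 0 and 1 and 7 and 8 counts. Expected counts of Scn1a, Scn3a and Scn9a were fractional, as were those of Hcn3, which means that reads matching more than 1 gene were divided by estimate, and these values are less certain than whole counts.

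With Scn2a1 included, Scn9a held 1.78% (interval 1.58% to 2.01%) of the alpha counts in the Ctrl-labelled and 2.98% (2.74% to 3.24%) in the OE-labelled library, and Scn3a 6.59% and 8.71%. Scn1a held 35.9% and 32.7%. The summed log2 FC of the tested alpha members was -0.073 (interval -0.11 to -0.038), whereas their median was 0.22, because the sum follows the abundant genes Scn1a and Scn8a.

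Genes for sodium channel alpha subunits lie in a cluster on mouse chromosome 2 (GRCm38.p6 in RefSeq, the assembly of the mm10 build that the submitters' processing notes name), where Scn1a (66270781 to 66440837) is followed by Scn9a (66480080 to 66635114) and Scn7a (66673426 to 66784910). Scn9a and Scn7a, 38.3 kb apart, had the highest fold changes of the tested members. Scn1a, 39.2 kb from Scn9a, was on the other side of 0. The interval of Scn7a, 0.14 to 0.87, holds the values of other members, such as Scn3b at 0.48. Of other alpha genes on chromosome 2, Scn3a and Scn2a1, 53.2 kb apart, were at 0.34 and -0.019. The bases before the RefSeq start sites of Scn9a, Scn7a and Scn1a are shown because these genes differ in sign while sharing a locus. All lie on the minus strand. Each window has 250 bases, 5′ to 3′, with the start site following the last base. The start site used for Scn9a lies inside the gene span given above, so part of its window does too.

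Scn9a, chr2:66634963-66635212: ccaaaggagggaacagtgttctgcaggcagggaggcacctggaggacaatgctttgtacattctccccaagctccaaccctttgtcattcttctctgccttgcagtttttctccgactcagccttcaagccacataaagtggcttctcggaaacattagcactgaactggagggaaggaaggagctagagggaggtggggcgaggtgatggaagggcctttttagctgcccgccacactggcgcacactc
Scn7a, chr2:66784911-66785160: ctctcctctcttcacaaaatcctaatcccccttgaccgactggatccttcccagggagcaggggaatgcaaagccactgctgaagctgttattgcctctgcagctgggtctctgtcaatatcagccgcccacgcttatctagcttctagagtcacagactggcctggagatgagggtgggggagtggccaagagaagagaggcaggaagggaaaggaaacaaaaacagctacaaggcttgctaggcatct
Scn1a, chr2:66440838-66441087: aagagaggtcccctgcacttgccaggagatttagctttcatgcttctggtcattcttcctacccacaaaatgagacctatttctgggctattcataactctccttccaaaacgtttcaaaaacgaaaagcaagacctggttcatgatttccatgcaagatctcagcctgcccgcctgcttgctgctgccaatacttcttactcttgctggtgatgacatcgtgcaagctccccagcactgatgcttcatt

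COUP-TFII binds DNA as a dimer at repeats of the half-site AGGTCA, or TGACCT on the opposite strand. None of these 3 windows holds those letters. Windows of this kind were at hand for 31 of the 43 members (41 start sites), and 4 of the 41 (9.76%) held the half-site on either strand, against 14.0% of 32851 windows of all genes. Of the 13 windows of members past log2 0.2 the half-site stood in 1, that of Cacng8, and of the 22 windows of members within log2 0.2 it stood in 2, Hcn2 and Scn8a. A match describes letters only and says nothing of binding in these mice. The windows of Cacng8 and Hcn2 on the plus strand are shown with the half-site in capitals. It stands once before Cacng8 and 2 times before Hcn2.

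Cacng8, chr7:3393792-3394041: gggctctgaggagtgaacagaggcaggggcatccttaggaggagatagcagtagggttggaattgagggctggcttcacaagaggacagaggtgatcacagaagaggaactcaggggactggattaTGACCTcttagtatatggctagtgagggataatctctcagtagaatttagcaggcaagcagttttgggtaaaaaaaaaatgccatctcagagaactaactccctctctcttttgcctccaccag
Hcn2, chr10:79716384-79716633: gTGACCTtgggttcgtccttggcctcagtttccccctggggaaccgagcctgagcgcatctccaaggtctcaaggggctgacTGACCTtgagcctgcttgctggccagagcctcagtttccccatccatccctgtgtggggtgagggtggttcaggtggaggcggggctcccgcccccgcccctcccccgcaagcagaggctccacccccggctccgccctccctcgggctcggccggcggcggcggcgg

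Hcn2, with 2 of these half-sites, did not differ detectably between the libraries with the main scaling, but was at -0.18 with the pan-neuronal scaling. Its counts were 3275 (Ctrl) and 4171 (OE), and the log2 FC was 0.036 (interval -0.031 to 0.10). Per length it was the leading HCN gene, with 60.03 and 61.54 CPM per kb of its longest transcript, against 7.95 and 10.2 for Hcn3, and it stayed first with the median transcript length. Hcn2 encodes an HCN channel typical of thalamus and brainstem.

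Hcn3 had 543 expected counts in the Ctrl-labelled and 864 in the OE-labelled library, a log2 FC of 0.36 (interval 0.20 to 0.51), and was the HCN gene on the higher side past log2 0.2. Hcn4, the pacemaker gene of the sinoatrial node, had 138 and 188 counts, and its 0.13 was not separated from 0 (interval -0.19 to 0.46). The interval of Hcn3 overlapped that of Hcn4 and lay above that of Hcn2.

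Sodium channel beta subunits are single-pass membrane proteins with an immunoglobulin fold. Scn3b was the beta gene past log2 0.2: 2021 counts (Ctrl) and 3500 counts (OE) gave a log2 FC of 0.48 (interval 0.40 to 0.56). Scn2b, at 0.044 with 4078 and 5223 counts, had an interval that included 0. Scn4b, the subunit linked to resurgent sodium current, had 3281 and 3812 counts and -0.097 (interval -0.16 to -0.029). The interval of Scn3b lay above those of Scn2b and Scn4b.

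**Figure D4:**
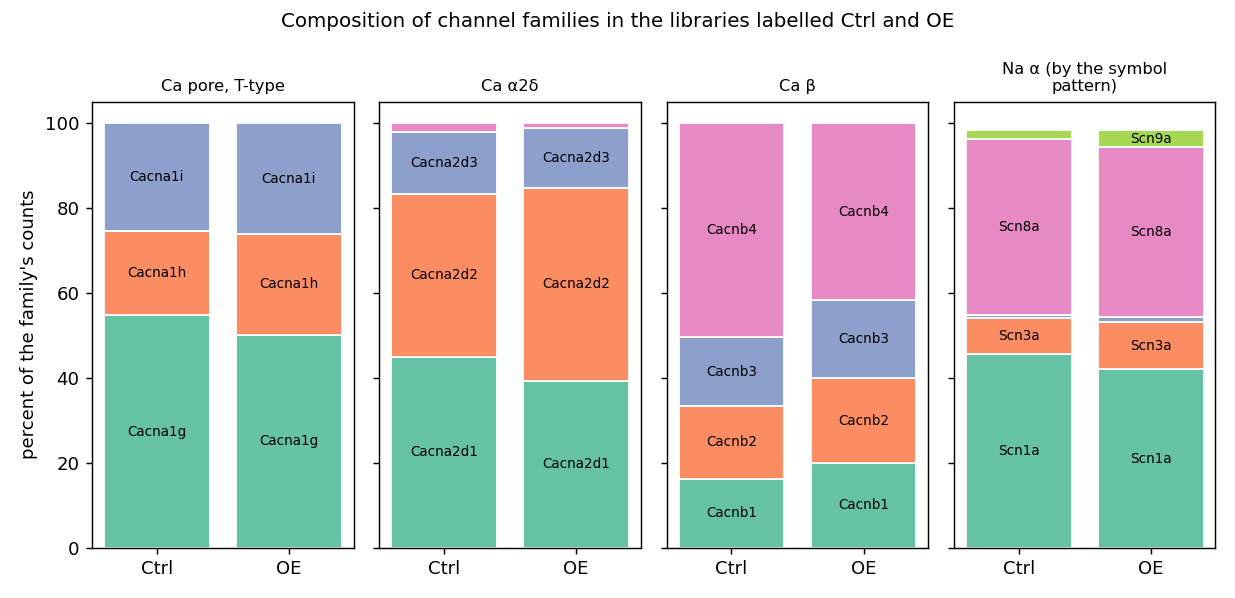
Percent of a family's counts (y axis) held by each gene in the libraries labelled Ctrl and OE, for 4 families, with genes under 0.5% and a small remainder of the sodium alpha counts left out. Cacnb4 takes 50.4% of the beta counts in the Ctrl-labelled and 41.7% in the OE-labelled library, and Cacna2d2 38.4% and 45.6% of the alpha2delta counts. Scn1a takes 45.6% and 42.0% of the sodium alpha counts of the members, which leave out Scn2a1. With Scn2a1 included, Scn1a held 35.9% and 32.7%.

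Genes whose products bind or steer these channels were taken from a list of 35, of which 34 rows were found and 33 tested. By more than log2 0.2 with an interval on the same side of 0, 6 were higher and 2 lower in the OE-labelled library, and the median was 0.034. Over all tested genes the same rule took 9.91% and 9.16%. Rrad, a small GTPase that inhibits calcium channels through their beta subunits, had 26 and 78 counts and the highest value, 1.26 (interval 0.62 to 1.97). Among the intracellular fibroblast growth factors, which bind the tail of sodium channels, Fgf13 had 2018 and 3371 counts and 0.43 (interval 0.35 to 0.51), Fgf11 had 284 and 445 counts and 0.33, and Fgf12 was on the other side of 0 with 3702 and 3998 expected counts and -0.20 (interval -0.27 to -0.14). Fgf14 had 371 and 460 counts and -0.0029.

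Pex5l encodes the auxiliary subunit TRIP8b that controls HCN channels at the dendritic membrane. It had 4981 and 5125 counts and a log2 FC of -0.27 (interval -0.33 to -0.22). Bsn and Rimbp2, scaffold genes of the presynaptic active zone where calcium channels are tethered, were at 0.24 and 0.21, and Cabp1, for a calcium sensor of L-type channels, at 0.23. Ank3, the anchor of sodium channels at the axon initial segment, was at 0.015 with 7955 and 9990 counts, and Nalcn, the sodium leak channel gene, at 0.097 with 2393 and 3180. The list has members on both sides of 0, as the channel genes do.

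Beside other membrane protein genes of neurons, the channel genes had the higher median. Potassium channel genes (97 rows, 78 tested) had a median log2 FC of -0.051, with 15 higher (19.2%) and 21 lower (26.9%) by more than log2 0.2. Glutamate receptor genes (29 rows, 27 tested) had a median of -0.14, with 3 higher (11.1%) and 10 lower (37.0%). Against these, 25.0% and 13.9% of the calcium, sodium and HCN channel genes were higher and lower. With a counting interval on the same side of 0 as well, 11 potassium channel genes were higher and 11 lower. By that rule 1 glutamate receptor gene was higher and 9 were lower, and 9 members were higher and 5 lower. The potassium channel genes were counted less deeply, with a median of 313 counts against 764 for glutamate receptor genes and 1015 for the members. No test of these differences was possible with 1 library per group. The lowest potassium channel gene was at -2.83, outside the range of -0.80 to 0.68 of the members. Channel transcripts are long, and of the genes with a longest transcript over 5 kb, 3430 tested genes had a median of -0.037 and the 22 tested members 0.073.

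**Figure D5:**
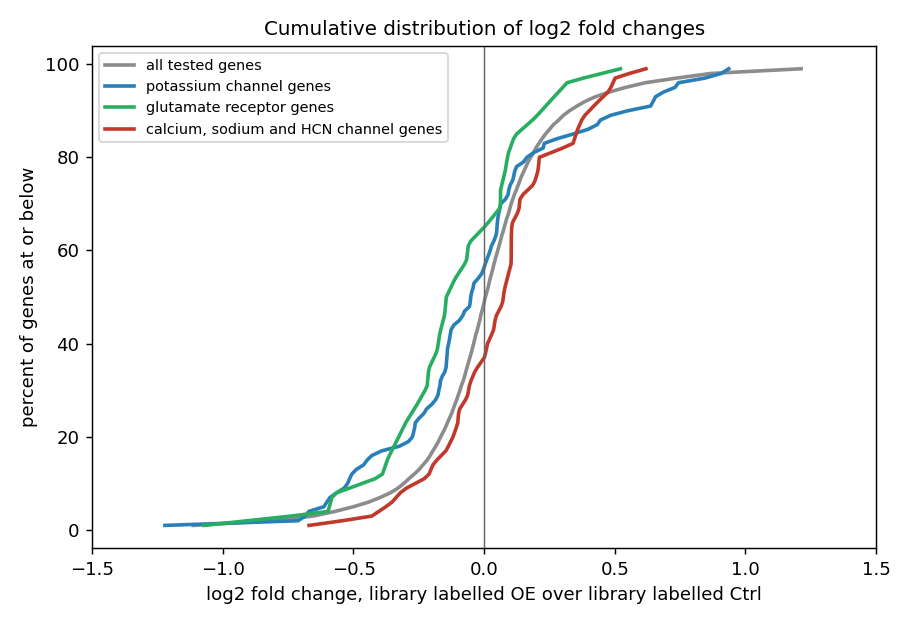
Percent of genes (y axis) at or below a given log2 FC (x axis) for all tested genes, potassium channel genes, glutamate receptor genes and the calcium, sodium and HCN channel genes. At 50% the channel genes cross at 0.073 and the glutamate receptor genes at -0.14. The channel genes have a short left tail, which starts at -0.67 at 1%, the lowest percentile drawn.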

How the data were processed

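RNA from the ventral midbrain was measured in 2 libraries. The tissue was sequenced by a company from stranded, polyadenylated libraries with paired reads of 50 bp and processed with its own pipeline, and the authors deposited expected counts per gene from RSEM, a program that estimates how many reads each gene received, with no scaling between libraries. Of these values, 95.4% were whole numbers. The submitters' processing notes name the build mm10. The aligner and annotation are not given in the sources used here. Columns were matched to samples by the number in the sample titles.

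Expected counts were rounded for TMM scaling (edgeR 4.0.16, R 4.3.3), which gave factors of 1.01 and 0.995. For log2 fold changes, 0.5 normalized counts were added to each value, and only genes whose mean reached 10 counts entered a count or median. A 95% Clopper-Pearson interval was put on the split of the 2 rounded counts (scipy 1.17.1). A gene was described as higher or lower past log2 0.2, the fold that the study's methods used. The intervals were tested on simulated data that varied by counting error alone, so that test does not speak to spread between animals. Transcript lengths came from GENCODE M21, promoter windows and gene positions from RefSeq GRCm38.p6, with no window for Cacna1a, Cacna1g, Cacna1h, Cacna2d4, Cacng1, Cacng4, Hcn3, Scn3a and Scn3b, among others. For 31 of the 41 start sites, the bases just after the start were found in a GENCODE transcript of the same gene. The members, gene lists and alternatives were chosen with earlier results of these data known. Genes named were the members, except 3 that enter the counts and medians but are not reported here, Nr2f2, Scn2a1, marker genes and partner genes past log2 0.2, and Ank3, Fgf14 and Nalcn were named after their values were seen. Figures were drawn with matplotlib 3.10.9. Lists of markers for GABAergic and glutamatergic neurons, oligodendrocyte precursors, cerebellum, hypothalamus, choroid plexus with ependyma and skeletal muscle were also computed.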

Additional observations from a re-analysis of the deposited data

How the results depend on the processing

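No paired analysis was possible because the 2 groups hold a single library each, and for the same reason no library could be left out. Scaling to total counts, the upper quartile or DESeq2 size factors (version 1.42.0), a pseudocount of 5 and a minimum mean of 100 counts kept both counts of members within 1.5 times of 9 higher and 5 lower. With the pan-neuronal markers set to a median of 0, which lowers every value by 0.21, 4 were higher and 15 lower. Cacna1e then fell to -0.0080 and Cacnb1 to -0.0028, and the family medians were -0.14 for high-voltage and -0.36 for T-type pore-forming calcium subunits, -0.20 for alpha2delta, -0.093 for beta, -0.16 for gamma, 0.0078 for sodium alpha, -0.22 for sodium beta, -0.13 for HCN and -0.14 for all members. With any count in place of the minimum, 8 members were lower and the sodium alpha median was 0.10, since genes of a few counts enter. Past log2 0.5, 2 were higher and 1 lower, and past log2 1 there were 0 and 0. Of 180 recomputed member fold changes, 152 stayed inside the main counting interval, and the 28 outside it were all under the pan-neuronal scaling. The sign changed for 16 members under that scaling and for 2, Cacna1a and Cacng7, with total counts. With the median transcript length, the first rank by level per length passed to another gene for Cacna1g, Cacna2d2, Cacnb3 and Scn1a, so no such order is given for their families. Depth leaves wide intervals for genes of few counts, such as Cacna2d4, Scn7a, Hcn4 and Cacng4.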

Other observations

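Several members lie next to each other in the genome (RefSeq, GRCm38.p6). Whether neighbours differ from each other was not tested. Cacna1c (chromosome 6, 118587240 to 119197384) and Cacna2d4 (119236524 to 119352407), 39.1 kb apart, were both lower in the OE-labelled library, at -0.22 and -0.80. Cacna2d3 and Cacna1d on chromosome 14, 317.2 kb apart, were at 0.090 and 0.19. On chromosome 7, Cacng7 at 0.0022 and Cacng8 at 0.43 are 25.8 kb apart. Scn2b and Scn4b on chromosome 9, 8.6 kb apart, were at 0.044 and -0.097.

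Markers of other cells that the tissue may hold gave these values. GABAergic markers had a median log2 fold change of -0.065 over 3 genes, with Slc32a1 at 0.29, and glutamatergic markers -0.23 over 3, with Slc17a7 at -2.51 from 231 and 50 counts. Oligodendrocyte precursor markers had a median of -0.061 over 5 genes. Cerebellar markers had 0.17 over 3 tested genes. Hypothalamic markers had -2.65 over 4 tested genes. Of these, Avp was at -6.02 (80.6 and 1 counts) and Oxt at -4.57 (48.4 and 2 counts). Pomc at -0.73 and Pmch at -0.26 had intervals that included 0. Markers of choroid plexus and ependyma had -1.95 over 4 tested genes. They ran from Ccdc153 at -5.58 (21 and 0 counts) through Ttr at -2.97 and Kl at -0.92 to Foxj1 at 0.063 (245 and 318 counts). Of 5 skeletal muscle markers 1 was tested and 1 was at 0 in both libraries, with a summed level of 1.61 and 1.55 CPM. The part of these differences in the channel genes was not tested.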
